A study of Schizosaccharomyces pombe with 8 samples.

Results

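The 26S proteasome is the protease that degrades ubiquitin-tagged proteins. A barrel-shaped core particle, built of rings of alpha subunits around rings of beta subunits, holds the proteolytic sites on its inner face. The regulatory particle that caps it has a base, whose ring of ATPases unfolds the substrate and opens the core, and a lid, which removes the ubiquitin chains. Oxidative damage raises the load of proteins to be degraded, and proteasome genes of many eukaryotes respond to proteotoxic stress.

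The proteasome genes described here are those whose symbol is rpn, rpt, pre, pup or mts followed by a number, together with *pad1*, *pam1*, *pts1*, *ump1* and *sem1*. The rule took 35 of the 5165 genes in the table, and all 35 passed the filter of a mean of at least 10 normalized counts that left 5019 genes for testing. By their annotation 6 encode core alpha subunits, 7 core beta subunits, 11 the base and 10 the lid, and *ump1* encodes a chaperone that assembles the core. The genes once called *pad1* and *sem1* are listed as *rpn11* and *rpn15*. The alpha 1 gene, *scl1*, and *SPCC18.17c*, annotated as a non-ATPase regulatory subunit, are outside the rule and are given with the other pathway genes.

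RNA was sequenced from fission yeast of strain 972 (WT) and of a single strain deleted for the DNA topoisomerase gene *top1* (Δ*top1*, RF14, with a kanMX6 cassette at the gene). Both were grown at 30°C in rich medium (YE5S) and were either left untreated or given 1 mM H2O2 for 30 min. Each of the 4 groups had 2 biological replicates, 8 libraries in all. The study asked how loss of Top1 changes the stress transcriptome. The libraries held 16090015 to 19899720 reads on genes, and the least covered value of a proteasome gene rested on 864 reads. The *top1* gene itself was at 1967 to 2513 normalized counts in the 4 WT libraries and at 243.6 to 308.5 in the 4 Δ*top1* libraries. Normalized counts are reads per gene after each library was scaled by its size factor, and they are relative levels in a culture: more RNA per cell and more responding cells cannot be told apart.

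Proteasome genes were well expressed in untreated WT cells. Their median was 3636 normalized counts, against 1232 for all genes tested, and they stood between the 53.3th and the 91.9th percentile of expression. Of the 35 genes, 26 (74.3%) contain an intron, against 48.4% of all genes. They are spread over the genome, with 15 on chromosome I, 12 on II and 8 on III, and none within 100 kb of a chromosome end. The closest neighbours, *rpn1301* and *rpn12*, lie 5.08 kb apart.

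The 35 genes include a pair of copies of the lid subunit Rpn5 and a pair of copies of the ubiquitin receptor Rpn13, and the copies of Rpn5 are shown first because their sequences set how far their counts can be told apart. The coding sequences of *rpn501* (I:1266269-1267780, plus strand) and *rpn502* (I:4909367-4910875, minus strand) are both 1332 bases long and differ at 2 bases, T978C and T1131C, giving 99.85% identity. Positions count from 1 at the first base of the coding sequence, with the base of *rpn501* first. Sequences and coordinates are those of RefSeq, build ASM294v3. The stretches around the differences follow, 5′ to 3′ on the coding strand, with the differing base in capitals.
rpn501 around position 978: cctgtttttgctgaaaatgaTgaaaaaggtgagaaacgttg
rpn502 around position 978: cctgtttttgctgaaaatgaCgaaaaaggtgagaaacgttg
rpn501 around position 1131: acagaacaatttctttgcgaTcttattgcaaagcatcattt
rpn502 around position 1131: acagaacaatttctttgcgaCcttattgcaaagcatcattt
Of the 31-base words in the transcript of *rpn501*, 95.5% also occur in another gene, and of those of *rpn502* 95.7%, so that reads of 50 bases cannot be safely divided between them. The 250 bases upstream of the copies are 95.2% identical as well. The Rpn13 copies are unlike this: *rpn1301* and *rpn1302* share 41.8% of aligned coding bases and no 31-base word, so their reads are separable.

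The upstream sequence of *rpn1301* is shown because this gene did not rise with H2O2, and that of *rpt6* because this gene had the largest rise in WT. Each is the 250 bases before the annotated transcript start, in build ASM294v3, with TATAAA on either strand in capitals.
rpn1301 (II:4208013-4208262, plus strand): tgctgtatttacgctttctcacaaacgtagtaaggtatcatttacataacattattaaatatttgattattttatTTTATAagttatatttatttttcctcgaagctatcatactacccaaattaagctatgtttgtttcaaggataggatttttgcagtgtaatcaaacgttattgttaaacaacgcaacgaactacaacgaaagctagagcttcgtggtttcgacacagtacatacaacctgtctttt
rpt6 (II:2122817-2123066, minus strand): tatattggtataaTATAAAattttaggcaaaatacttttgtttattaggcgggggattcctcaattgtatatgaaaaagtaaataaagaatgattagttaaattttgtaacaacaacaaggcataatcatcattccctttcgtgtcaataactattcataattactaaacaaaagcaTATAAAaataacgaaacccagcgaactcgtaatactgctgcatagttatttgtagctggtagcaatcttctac
TATAAA was found upstream of 20 of the 35 genes, against 44.5% of 5128 upstream windows of the same length. GGTGGCAAA, the element through which Rpn4 acts on proteasome genes in Saccharomyces cerevisiae, was in none of the 35 windows and in 0.078% of all. TTAGTCA, a site of the oxidative stress factor Pap1, was upstream of *pts1*, *pup1*, *pup2* and *rpn6* and of 3.86% of all genes. TGACGT, the core of the element bound by Atf1, was upstream of *rpn12* alone, against 5.56% of all. CAGTCACA, the homolD box of ribosomal protein genes, was upstream of *pre10* and of 2.61% of all. Both strands were searched, no motif lies wholly within another, and a match describes these letters only.

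With H2O2, RNA of nearly every proteasome gene rose in WT cells, and the median changes of the core rings, the base and the lid lay close together. In WT, 34 of the 35 genes were higher at an adjusted p under 0.1 (limma on log2(normalized count + 1), Benjamini-Hochberg over all genes tested, 2 libraries a group), against 36.4% of all genes tested. For the same 34 genes both treated libraries lay above both untreated ones, which 40.9% of all genes did. The remaining gene, *rpn1301*, was lower, against 35.6% of all genes. At least 2-fold rises were called for 8 genes, *rpt6*, *rpn11*, *pre3*, *pre1*, *pre9*, *ump1*, *rpn7* and *rpt2*, against 12.2% of all genes. That number depended on the scaling: 1 gene (*rpt6*) passed it with the libraries rescaled to the same total, against 8.03% of all genes, 2 (*rpt6* and *rpn11*) with all rescaled to the same upper quartile, against 8.83%, and 0 with quantile normalization, against 10.7%. The median log2 change was 0.81 (1.75-fold) over the 35 genes and 0.0028 over all genes tested. With the libraries scaled to the same total these medians were 0.44 and -0.37, and with quantile normalization 0.35 and -0.092. The calls in WT that ended were those of *pre5*, *rpn10*, *rpn15* and *rpt1* with the same total, of *pre5*, *rpn15* and *rpt1* with the same upper quartile, and of *mts4*, *pre5*, *pup2*, *rpn15*, *rpn501*, *rpn9* and *rpt1* with quantile normalization. This left 30, 31 and 27 genes called higher.

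In Δ*top1* cells 34 of the 35 genes were again higher, against 35.9% of all genes, and none was lower, against 34.9%. The exception was once more *rpn1301*. Rises of at least 2-fold were called for *pre3*, *pre9*, *rpt6* and *pre1*, 4 genes against 12.6% of all, and for 3, 2 and 1 of them with the same total, the same upper quartile and quantile normalization, against 9.98%, 9.62% and 11.3% of all. Both treated libraries were above both untreated ones for 34 genes, against 42.4% of all. The median log2 change was 0.71 (1.64-fold) over the 35 genes and -0.0019 over all genes, or 0.51 and -0.20 with the same total and 0.41 and -0.081 with quantile normalization. The count of 0 lower genes was also 0 at an unadjusted p under 0.05 and with edgeR and DESeq2 on the recovered reads, but 1 (*rpn1301*, adjusted p = 0.072) with the same upper quartile.

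**Figure D1:**
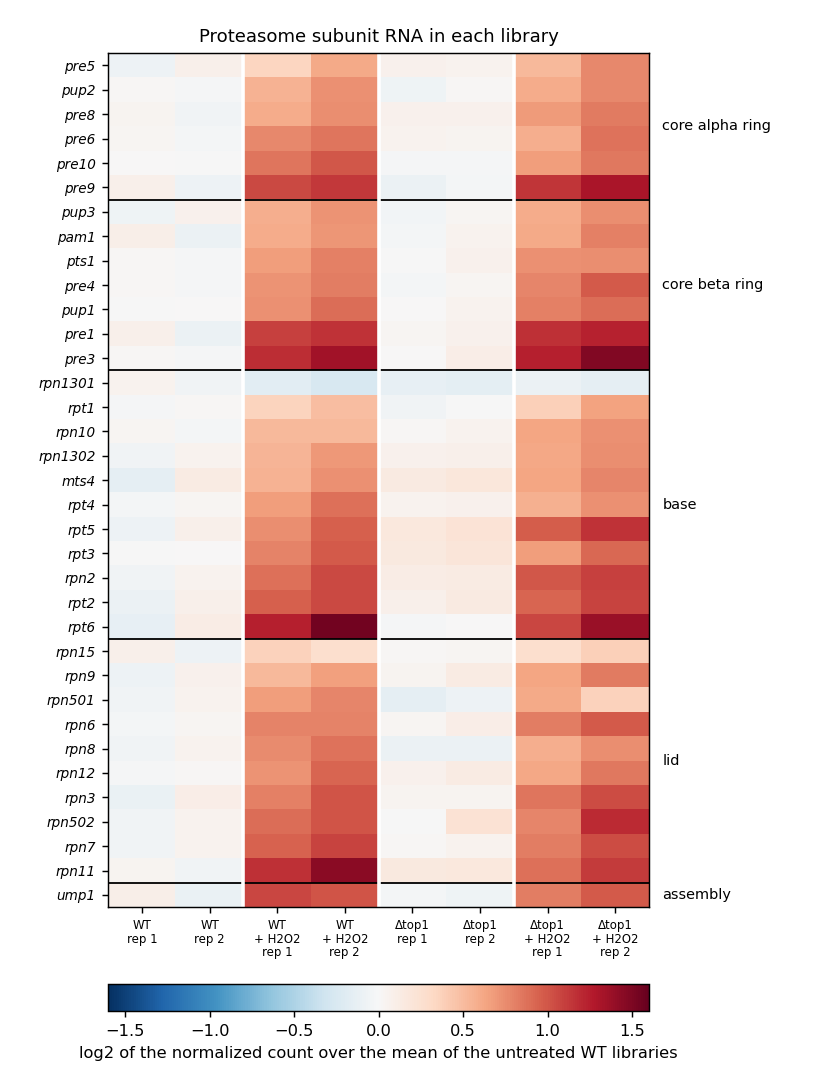
Log2 ratio of each gene's normalized count to its mean in the untreated WT libraries, for the 35 genes (rows, grouped by subcomplex and ordered by their change in WT) in the 8 libraries (columns). The 4 treated columns are red throughout except in the row of *rpn1301*, and the untreated Δ*top1* columns resemble those of untreated WT.

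The sum over the subunits grew as a part of the transcriptome. Proteasome genes took 0.843% and 0.812% of the reads on genes in the untreated WT libraries and 1.12% and 1.197% in the treated ones. In Δ*top1* they took 0.844% and 0.847% untreated and 1.25% and 1.31% treated. The treated libraries did not overlap the untreated ones in either strain, and the ratio of the means was 1.40 in WT and 1.51 in Δ*top1*. This share is smaller than the change in normalized counts because the summed normalized counts of all genes differed between libraries. The treated Δ*top1* libraries lay above the treated WT libraries in this share, by a ratio of 1.10, but not in normalized counts, as given with the comparison of the strains.

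The 2 libraries of a group were not equally high. In WT with H2O2, replicate 2 was above replicate 1 for 32 of the 35 genes, with a median difference of 0.14 on the log2 scale, while 51.2% of all genes tested were higher there. In treated Δ*top1* replicate 2 was higher for 33 of the 35 genes, against 52.1% of all genes, with a median difference of 0.17. In untreated Δ*top1* it was higher for 30 of the 35 genes, against 48.1% of all genes, with a median difference of 0.041. In untreated WT it was higher for 20 of the 35, against 51.1% of all genes. The proteasome genes thus mostly shifted in one direction between the 2 libraries of both treated groups and of untreated Δ*top1*, but not of untreated WT. Both treated libraries were nonetheless above all untreated ones for 34 genes in each strain.

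The alpha ring forms the gate of the core. Its 6 genes all rose in both strains as deposited, though the WT calls of *pre5* and *pup2* ended under a rescaling named above, with a median log2 change of 0.74 in WT and 0.70 in Δ*top1*. The most changed was *pre9*, the alpha 3 subunit. Its normalized counts were 3668 and 3275 in untreated WT, 7249 and 7634 in treated WT, 3249 and 3412 in untreated Δ*top1*, and 7680 and 8575 in treated Δ*top1*. The treated libraries stood above the untreated ones with no overlap, and the log2 change was 1.10 (SE 0.10, adjusted p = 1.9e-05) in WT and 1.29 (SE 0.10, adjusted p = 7.1e-06) in Δ*top1*. The least changed was *pre5*, the alpha 6 subunit, at 0.48 in WT and 0.58 in Δ*top1*. Between them lay *pre10* (alpha 7) at 0.93 and 0.78, *pre6* (alpha 4) at 0.81 and 0.68, *pre8* (alpha 2) at 0.67 and 0.69, and *pup2* (alpha 5) at 0.64 and 0.71, WT first.

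The beta ring carries the proteolytic sites, which belong to the beta 1, beta 2 and beta 5 subunits. Its 7 genes all rose, with a median log2 change of 0.77 in WT and 0.82 in Δ*top1*. The gene of the beta 1 subunit, *pre3*, rose most. It stood at 2958 and 2882 normalized counts in untreated WT and at 6613 and 7427 in treated WT, and at 2931 and 3143 in untreated Δ*top1* and 6901 and 8156 in treated Δ*top1*. Every treated library was over 2 times the highest untreated one, and the log2 change was 1.26 (SE 0.11, adjusted p = 1.5e-05) in WT and 1.31 (SE 0.11, adjusted p = 1.2e-05) in Δ*top1*. The other catalytic subunits moved less: *pup1* (beta 2) by 0.81 and 0.82, and *pts1* (beta 5) by 0.74 and 0.71, in WT and Δ*top1*. Of the subunits without a proteolytic site, *pre1* (beta 4) changed by 1.13 and 1.15, and *pre4* (beta 7), *pam1* (beta 6) and *pup3* (beta 3) by 0.65 to 0.77 in WT and 0.67 to 0.88 in Δ*top1*.

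In the base, the 6 genes of the ATPase ring, the scaffold genes *mts4* (Rpn1) and *rpn2*, and the ubiquitin receptor genes *rpn10*, *rpn1301* and *rpn1302* spanned the widest range. The median log2 change of the 11 genes was 0.78 in WT and 0.62 in Δ*top1*. The SD of the change across these genes was 0.41 in WT, against 0.22 to 0.26 in the alpha ring, the beta ring and the lid. In Δ*top1* it was 0.30, against 0.19 to 0.25. The SD of the base in WT includes *rpn1301*, at -0.21, while the other base genes lay between 0.42 and 1.40. At the top was the ATPase gene *rpt6*. Its normalized counts were 4957 and 5856 in untreated WT, 12847 and 15710 in treated WT, 5314 and 5426 in untreated Δ*top1*, and 11350 and 14042 in treated Δ*top1*. The treated libraries were far above the untreated ones, by 1.40 on the log2 scale in WT (SE 0.14, adjusted p = 5.1e-05) and 1.23 in Δ*top1* (SE 0.14, adjusted p = 0.00010). The other ATPases, *rpt1* to *rpt5*, rose by 0.42 (*rpt1*) to 1.01 (*rpt2*) in WT and by 0.55 (*rpt1*) to 0.90 (*rpt2*) in Δ*top1*. The WT call of *rpt1* ended under all 3 rescalings. The scaffold genes rose too, *rpn2* by 0.97 and 0.92 and *mts4* by 0.65 and 0.55, though the WT call of *mts4* ended with quantile normalization.

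In WT the ubiquitin receptors were towards the low end of the base. The log2 change of *rpn10* was 0.52 in WT and 0.65 in Δ*top1*, and it passed the test in both, though not in WT with the same total. The Rpn13 copies went apart. For *rpn1302* the normalized counts were 1500 and 1619 in untreated WT, 2273 and 2513 in treated WT, 1635 and 1648 in untreated Δ*top1*, and 2401 and 2611 in treated Δ*top1*. The treated libraries were above the untreated ones in both strains, and the log2 change was 0.62 (SE 0.088, adjusted p = 0.00034) in WT and 0.61 (SE 0.088, adjusted p = 0.00038) in Δ*top1*.

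The other copy, *rpn1301*, was the one proteasome gene that did not rise. It stood at 1330 and 1234 normalized counts in untreated WT, 1139 and 1073 in treated WT, 1171 and 1149 in untreated Δ*top1*, and 1204 and 1165 in treated Δ*top1*. Both treated WT libraries were below both untreated ones, as for 40.7% of all genes, and the Δ*top1* groups overlapped. The log2 change was -0.21 (SE 0.082, adjusted p = 0.048) in WT and 0.030 (SE 0.082, 95% interval -0.16 to 0.22, adjusted p = 0.77) in Δ*top1*. The fall in WT was not called by DESeq2 on the recovered reads (adjusted p = 0.115), without replicate 1 of untreated WT (0.203) or without replicate 2 of treated WT (0.19). In Δ*top1*, scaling all libraries to the same upper quartile gave -0.21 (adjusted p = 0.072). The ratio of *rpn1302* to *rpn1301* in normalized counts per kb was 1.32 and 1.54 in untreated WT and 2.34 and 2.75 in treated WT, and 1.64 and 1.68 in untreated and 2.34 and 2.63 in treated Δ*top1*. This ratio, which needs no scaling between libraries, was higher in every treated library than in every untreated one.

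**Figure D2:**
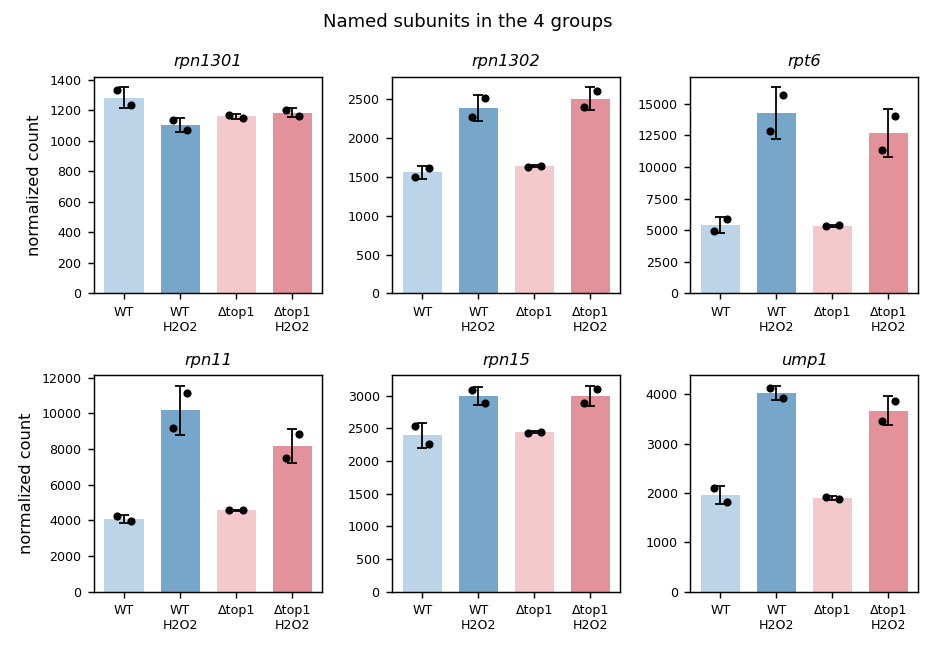
Normalized counts of 6 proteasome genes in the 4 groups (bars: mean of 2 libraries, error bars: SD, points: libraries), each panel with its own axis from 0. The bars of *rpn1301* are nearly level, while those of *rpn1302*, *rpt6*, *rpn11*, *rpn15* and *ump1* are higher with H2O2 in both strains.

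The lid removes ubiquitin from the substrate. Its 10 genes all rose in both strains as deposited, though the WT calls of *rpn9*, *rpn15* and *rpn501* ended under a rescaling named above. The median log2 change of the lid was 0.82 in WT and 0.79 in Δ*top1*. Its deubiquitinase gene, *rpn11*, had the highest rise in WT. The normalized counts of *rpn11* were 4222 and 3939 in untreated WT, 9188 and 11142 in treated WT, 4556 and 4583 in untreated Δ*top1*, and 7486 and 8850 in treated Δ*top1*. The treated groups were clear of the untreated ones, and the treated Δ*top1* libraries were both below the treated WT libraries, as for 30.9% of all genes. The log2 change was 1.31 (SE 0.12, adjusted p = 2.6e-05) in WT and 0.83 (SE 0.12, adjusted p = 0.00037) in Δ*top1*. Its partner *rpn8*, whose product pairs with Rpn11, changed by 0.82 and 0.76.

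At the low end of the lid was *rpn15*, which encodes the small acidic protein Dss1, also a partner of the recombination factor Brh2 in Ustilago and of BRCA2 in mammals. It was at 2531 and 2261 normalized counts in untreated WT, 3089 and 2892 in treated WT, 2435 and 2452 in untreated Δ*top1*, and 2890 and 3108 in treated Δ*top1*. The treated libraries were higher without overlap, by 0.32 (SE 0.088, adjusted p = 0.011) in WT and 0.29 (SE 0.088, adjusted p = 0.017) in Δ*top1*. These small rises were not called when the libraries were scaled to the same total, the same upper quartile or the same quantiles, and with the same total the value in WT was -0.052.

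The Rpn5 copies both rose. In *rpn501* the normalized counts were 4381 and 4741 in untreated WT, 7231 and 7868 in treated WT, 4115 and 4293 in untreated Δ*top1*, and 6951 and 5874 in treated Δ*top1*. In *rpn502* they were 6231 and 6740, 12053 and 13000, 6439 and 7624, and 11190 and 14899, in the same order. In treated Δ*top1* replicate 2 was the lower library for *rpn501* and the higher one for *rpn502*, and *rpn501* took 28.3% of the pair there, against 36.0% to 41.3% in the other libraries. The sum of the pair was 18141 and 20773 in treated Δ*top1* and 19284 and 20868 in treated WT, against 10554 to 11917 in the untreated libraries. Fitted as 1 gene, a setting added after seeing the data, the pair rose by 0.86 (SE 0.12, adjusted p = 0.00028) in WT and 0.79 (SE 0.12, adjusted p = 0.00047) in Δ*top1*. The division of the pair is uncertain, given the sequences above, and the sum is the safer value. The other lid genes, *rpn3*, *rpn6*, *rpn7*, *rpn9* and *rpn12*, rose by 0.59 to 1.01 in WT and 0.63 to 0.90 in Δ*top1*.

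The assembly chaperone gene *ump1*, whose product is enclosed in the nascent core and degraded by it, was at 2095 and 1827 normalized counts in untreated WT, 4130 and 3924 in treated WT, 1923 and 1874 in untreated Δ*top1*, and 3455 and 3874 in treated Δ*top1*. It was higher in every treated library than in every untreated one. The log2 change was 1.04 (SE 0.10, adjusted p = 2.7e-05) in WT and 0.95 (SE 0.10, adjusted p = 4.6e-05) in Δ*top1*.

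**Figure D3:**
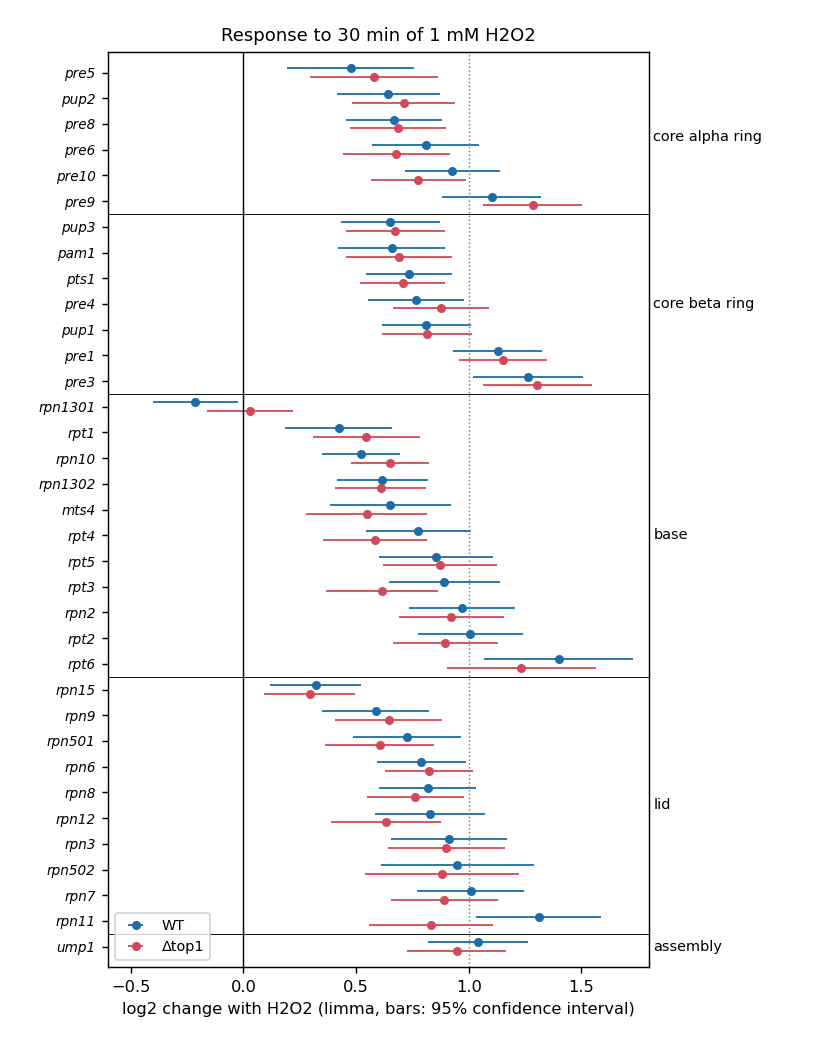
Log2 change with H2O2 of the 35 proteasome genes (points, with 95% confidence intervals from limma) in WT and Δ*top1*, by subcomplex. The intervals of 34 genes lie above 0 in both strains, the exception is *rpn1301*, and the dotted line marks a 2-fold rise.

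The size of a gene's change was alike in the strains. Across the 35 genes the changes in WT and Δ*top1*, which share no library, had a Pearson coefficient of 0.89 and a Spearman coefficient of 0.85, against 0.91 and 0.90 over all genes tested. These coefficients run across genes, which are not independent replicates. In both strains *rpt6*, *pre3*, *pre9* and *pre1* were among the top 5 genes, and *rpn1301*, *rpn15* and *rpt1* among the lowest.

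Deletion of *top1* left the level of proteasome RNA in untreated cells without a detected difference. No gene of the 35 was called higher or lower, against 0.279% and 0.339% of all genes, and none had an unadjusted p under 0.05 in limma or was called by edgeR or DESeq2 on the recovered reads. The log2 differences of Δ*top1* from WT lay between -0.14 (*rpn1301*) and 0.19 (*rpt5*), with a median of 0.046 and a median SE of 0.10. With 2 libraries a group, 95% intervals of single genes reached from -0.36 to 0.45. An exact permutation test on 2 against 2 libraries cannot go below p = 0.333.

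With H2O2 the strains differed in 1 gene of 35. None was called higher in Δ*top1* by limma, edgeR or DESeq2, nor had such a difference at an unadjusted p under 0.05, against 17.1% of all genes called higher by limma, and *rpn11* was lower, against 14.7%. Its log2 difference was -0.31 (SE 0.12, adjusted p = 0.098), so that the call sits at the threshold, and it was lost in most alternatives, such as edgeR on the recovered reads (adjusted p = 0.109) and without replicate 2 of treated WT (-0.17, adjusted p = 0.397). The other 34 genes lay between -0.24 (*rpn501*) and 0.21 (*rpt5*), with a median over the 35 of 0.040. With the libraries scaled to the same total, where the median difference of all genes between the treated strains was 0.16, 12 proteasome genes were called higher in Δ*top1* and none lower, against 29.9% of all genes higher. With quantile normalization 8 of the 35 were called higher, against 13.8% of all, with a median of 0.13 over the 35 and -0.010 over all genes. With the same upper quartile 1 was, against 19.1%.

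The test of a different response to H2O2 in the 2 strains called none of the 35 genes in either direction by limma, edgeR or DESeq2, against 2.13% and 1.83% of all genes. The difference was -0.48 for *rpn11* (95% interval -0.87 to -0.09, adjusted p = 0.19), the 1 gene with an unadjusted p under 0.05. For *rpn1301* it was 0.24, and for the other genes it was between these values. The subcomplex medians were -0.048 in the base, 0.043 in the alpha ring, 0.023 in the beta ring and -0.062 in the lid.

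Per kilobase of transcript, the subcomplexes stood at similar levels. The median normalized count per kb in untreated WT was 3011 for the alpha ring, 2490 for the beta ring, 2355 for the base and 2926 for the lid. With H2O2 these became 5423, 4425, 3754 and 5246 in WT and 5816, 4589, 4335 and 4999 in Δ*top1*. The beta ring genes were the most even, from 2306 (*pup1*) to 3042 (*pre3*) per kb in untreated WT, an SD of 0.17 on the log2 scale. With H2O2 they ranged from 3649 (*pam1*) to 7313 (*pre3*) and the SD was 0.33. In the base the SD across genes went from 0.68 to 1.04 in WT, as *rpt6*, already the most abundant of the base at 4062 per kb, reached 10727 and *rpn1301*, the least abundant at 836, stood at 721. In the lid it was 0.32 before and after. Transcript lengths came from the ASM294v3 annotation, so that small differences between genes depend on it.

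**Figure D4:**
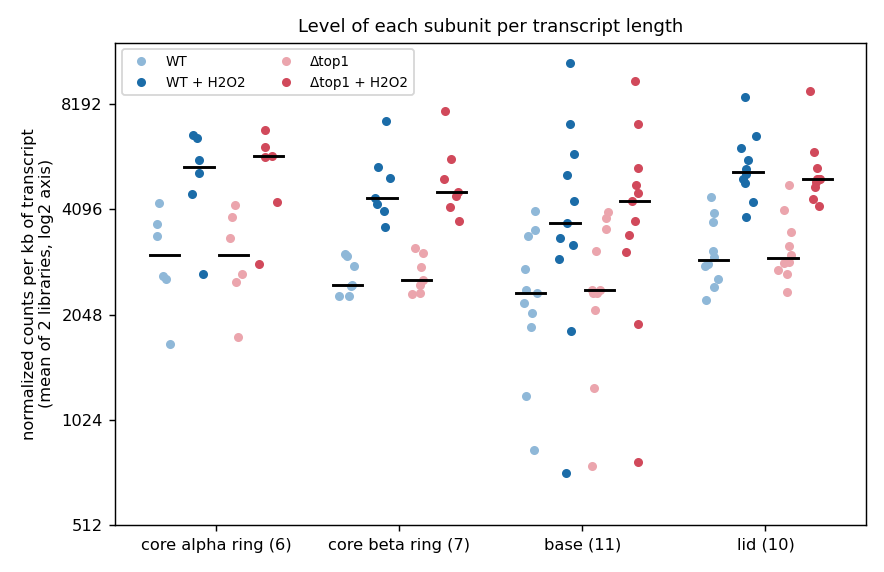
Normalized counts per kb of transcript (log2 axis, mean of 2 libraries) of each gene of the alpha ring, beta ring, base and lid in the 4 groups, with the median as a bar. The medians rise with H2O2 in every subcomplex, and the spread of the base widens.

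Most genes of a wider list drawn up around the proteasome moved in the same direction, though less evenly. A list of 19 symbols, of which 16 were in the table, and 6 further genes whose annotation names the proteasome gave 22 genes, of which 21 were tested. In WT 17 of the 21 were higher and 2 lower, against 36.4% and 35.6% of all genes, and in Δ*top1* 16 were higher and 3 lower, against 35.9% and 34.9%, with medians of 0.76 and 0.68. The alpha 1 gene *scl1* rose by 0.75 and 0.59, within the range of the other alpha genes. The polyubiquitin gene *ubi4*, whose reads may be shared with other ubiquitin genes, rose by 1.86 in WT and 2.08 in Δ*top1*, and *fub1*, whose product is related to the PI31 regulator of the core, by 2.02 and 1.99. The segregase Cdc48 and its cofactors, which extract ubiquitinated proteins, rose together: *cdc48* by 1.42 and 1.02, *ufd1* by 1.47 and 1.72, and *npl4* by 1.04 and 1.19. The base assembly chaperone genes *nas6* (1.33 and 1.32) and *nas2* (0.76 and 0.93) rose as well, as did the proteasome-bound deubiquitinase genes *ubp6* (0.50 and 0.47) and *uch2* (0.86 and 0.85). Changes in this list are as deposited. They were not examined under the rescalings that ended some calls among the 35 genes.

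The exceptions were few. The genes called lower in both strains were *pth1*, annotated only as a peptidyl-tRNA hydrolase (-0.33 and -0.57), and *SPCC18.17c*, annotated as a non-ATPase regulatory subunit (-0.50 and -0.56). Of the genes annotated as assembly chaperones Pac3 and Pac4, *SPBC16E9.19* (Pac3) was not called in either strain (0.020 and -0.066). The Pac4 gene, *SPCC24B10.16c*, rose (0.71 and 0.68). The gene *rhp23* rose by 0.28 in WT and was not called in Δ*top1* (0.0061). The gene of the factor that tethers the proteasome in the nucleus, *cut8*, was at 0.21 in WT (adjusted p = 0.105) and fell by 0.39 in Δ*top1*. It was the 1 listed gene with a called difference in response between the strains (-0.60, SE 0.15, adjusted p = 0.096). Over all genes, 2.13% were called higher and 1.83% lower in this test, and the adjusted p of *cut8* lies near the threshold of 0.1. Between the treated strains, 3 of the 21 were higher in Δ*top1*, *ubi4* (0.66), *ecm29* (0.52) and *npl4* (0.29), and 3 were lower, *cut8* (-0.50), *pth1* (-0.32) and *dph1* (-0.28), counts near the shares over all genes of 17.1% and 14.7%.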

How the data were processed

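Total RNA of 2 biological replicates per group was selected for poly(A), and stranded libraries were sequenced as single reads of 50 bases. Per the study's methods, the authors checked reads with FastQC 0.11.9, estimated transcript reads with Salmon 1.2.1 on ASM294v2 and normalized them with DESeq2 1.24.0. The submitters' processing notes list FastQC, Trimmomatic, STAR, HTSeq and DESeq2 with ASM294v2, so the sources differ on the aligner and counter. The deposited signal is a normalized count per gene and library. Every column belongs to one of the 8 samples. Dividing by the value of 1 read gave whole reads for 5164 of 5165 values (99.98%) in each library, within 0.01 reads.

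Normalized counts were tested as log2(value + 1) with limma 3.58.1 in R 4.3.3, with 4 group means over 8 libraries, a variance trend, a mean of at least 10, two-sided tests and Benjamini-Hochberg adjustment over 5019 genes. Calls were made at an adjusted p under 0.1. On the recovered reads edgeR 4.0.16 called 1758 genes higher with H2O2 in WT, against 1826 by limma, and DESeq2 1.42.0 called 1773. On simulated data with 5019 genes, 50 were changed by each of 1.5-, 2-, 4- and 8-fold in the treated WT libraries. The fit recovered 68% of genes changed 1.5-fold and 94% of those changed 2-fold, with 29 false calls. Far fewer genes changed there than were called with H2O2 in WT (1826 higher and 1785 lower). These rates need not hold for the data.

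The members and lists were chosen with earlier results of these data known. Values in every library are given for up to 3 called members with the largest change in each direction in each comparison, called members moving against their subcomplex, the duplicated subunits, *rpn11*, *rpn15* and *ump1*. Sequences and positions are from RefSeq ASM294v3, to which 5129 of 5165 identifiers matched, and no coordinates were carried between builds. Alternatives were pseudocounts of 0.5 and 5, no count minimum or one of 50, other scalings, limma without the trend, the replicate number as a block, edgeR, DESeq2, the compared groups alone, an adjusted p under 0.05 and each library left out.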

Additional observations from a re-analysis of the deposited data

How the results depend on the processing

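The rise of proteasome genes with H2O2 kept its direction as a group under the alternatives run, with 27 to 34 of the 35 genes called higher in WT and 33 or 34 in Δ*top1*. Rescaling to the same total moved the median of all genes by -0.37 in WT and -0.20 in Δ*top1*, and the same upper quartile moved it by -0.29 and -0.24. These scalings divide each library by a single factor, so they cannot alter the difference between the median of the proteasome genes and that of all genes. That difference was 0.81 and 0.71 under both, and it is no separate check of the rise. Quantile normalization can alter it, and there it was 0.44 and 0.49. With the same total, the same upper quartile and quantile normalization, in that order, the median log2 change in WT was 0.40, 0.48 and 0.33 for the base, 0.37, 0.44 and 0.28 for the alpha ring, 0.39, 0.47 and 0.35 for the beta ring, and 0.45, 0.53 and 0.37 for the lid. In Δ*top1* it was 0.41, 0.38 and 0.41 for the base, 0.50, 0.46 and 0.37 for the alpha ring, 0.61, 0.58 and 0.51 for the beta ring, and 0.59, 0.55 and 0.45 for the lid. The lid median in Δ*top1* was between 0.70 and 0.87 with libraries left out. In WT, *rpn15* was at -0.052 with the same total, and in Δ*top1* *rpn1301* was at -0.17 and -0.21 with the same total and upper quartile, so that 1 gene was called lower with the latter.

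The 1 gene lower in WT (*rpn1301*) became 0 with DESeq2 and with only the groups compared, and was 0 or 1 with libraries left out, where a lone library is assumed to vary like the other groups. Between the treated strains, 12 genes were higher in Δ*top1* with the same total (29.9% of all genes), 1 with the same upper quartile (19.1%), 8 with quantile normalization (13.8%) and 1 (*rpt5*) with the replicate block (23.5%). The 1 lower gene (*rpn11*) became 0 with each of the 3 rescalings, no count minimum, a limma fit without the trend, edgeR, only the groups compared and an adjusted p under 0.05, and was 0 or 1 with libraries left out. With the replicate block 2 genes were lower (*rpn11* and *rpn501*), and 1 gene (*rpn11*, -0.48, adjusted p = 0.083) was called lower in the difference of responses. The block changed no other count of proteasome genes called at an adjusted p under 0.1. Over all genes it raised the higher calls from 107 to 431 in the difference of responses, from 856 to 1178 between the treated strains and from 1826 to 1943 with H2O2 in WT. The causes were not tested. The labels tie libraries by number only, and the correlation of their deviations within a number was 0.233 (WT groups), 0.406 (Δ*top1* groups), 0.617 (untreated), 0.369 (treated), 0.297 and 0.066 (the crossed groups). Each value rested on at least 864 reads, and 2 libraries a group limit the precision.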
